A study of Rattus norvegicus with 6 samples.

Results

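The mitochondrially encoded respiratory chain transcripts described here are 10 genes, chosen by their Ensembl identifiers, among 33884 genes in a count table of rat cardiac macrophages. All 10 were found and all 10 passed the filter on low counts, which kept 12756 genes. The macrophages came from the infarcted heart 72 h after myocardial infarction (MI), which was made in male Sprague Dawley rats of matched age by tying off a coronary artery without reperfusion. Cells were released with Liberase and sorted as CD45+HIS36+, CD45 marking leukocytes in general and the HIS36 antibody binding rat macrophages. There were 3 libraries from WT rats and 3 from Dusp6-/- rats, a CRISPR mutant called Dusp6-deficient below. Dusp6 encodes a phosphatase that inactivates the kinase ERK. The sources used here do not say whether rats were pooled, so the p-values measure only the spread between these libraries. The level of Dusp6 and the markers of macrophages and of other cell types were not analysed here, because the identifiers could not be paired with gene names, and neither the genotype nor the cell type of a library was therefore checked.

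The respiratory chain of the inner mitochondrial membrane passes electrons through complexes I, III and IV and pumps protons, and complex V uses the proton gradient to make ATP. Most subunits are encoded in the nucleus, and a few core subunits are encoded by the small circular mitochondrial DNA, which is transcribed from both strands into long precursors that are then cleaved. Macrophages shift between oxidative phosphorylation and glycolysis with their state of activation.

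The WT libraries held 15806508, 16467086 and 12089585 counts in replicates 1, 2 and 3, and the Dusp6-deficient libraries held 17274938, 14183096 and 14124625. Dusp6-deficient replicate 1 stood apart from the other libraries of its genotype. On the first principal component of log2 CPM (counts scaled to library size, with TMM factors), it had a score of 4.48, between the WT libraries at -49.7 to -35.9 and the other Dusp6-deficient libraries at 65.0 and 53.5. The share of counts on the transcripts, and their fold changes and calls in edgeR's test with TMM scaling, are therefore given with and without it. A chi-square of counts per gene, smaller for more alike libraries, was 26.4 between Dusp6-deficient replicates 2 and 3. Between WT libraries it was 49.2 to 75.9. For Dusp6-deficient replicate 1 it was 126, 113 and 103 to WT replicates 1, 2 and 3, and 144 and 121 to Dusp6-deficient replicates 2 and 3. Fits without replicate 1 thus rest on 2 closely alike libraries. The sums by complex, ratios, correlations and other fits use all 6 libraries unless stated.

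Together, the 10 transcripts took 4.86%, 6.52% and 7.04% of the counts in WT replicates 1, 2 and 3. In Dusp6-deficient replicates 1, 2 and 3 they took 3.02%, 8.79% and 8.22%. Dusp6-deficient replicate 1 was the lowest of the 6 libraries and the other Dusp6-deficient libraries were the highest, so the genotypes overlapped with WT in the middle. The WT mean was 6.14% ± 1.14 (SD, n = 3). The mean of the Dusp6-deficient libraries was 6.68% ± 3.18 (SD, n = 3), a difference smaller than the spread within either genotype. Without replicate 1, the Dusp6-deficient mean was 8.50%. The difference of the means, Dusp6-deficient minus WT, was 0.53 percentage points with all 6 libraries and 2.36 without Dusp6-deficient replicate 1. It turned to -0.52 without Dusp6-deficient replicate 2, to -0.24 without replicate 3 and to -0.11 without WT replicate 1, so its direction depended on single libraries. As a share of TMM-scaled library sizes it was 1.79. In sorted bulk cells, fewer cells of a type and less RNA per cell cannot be told apart.

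**Figure D1:**
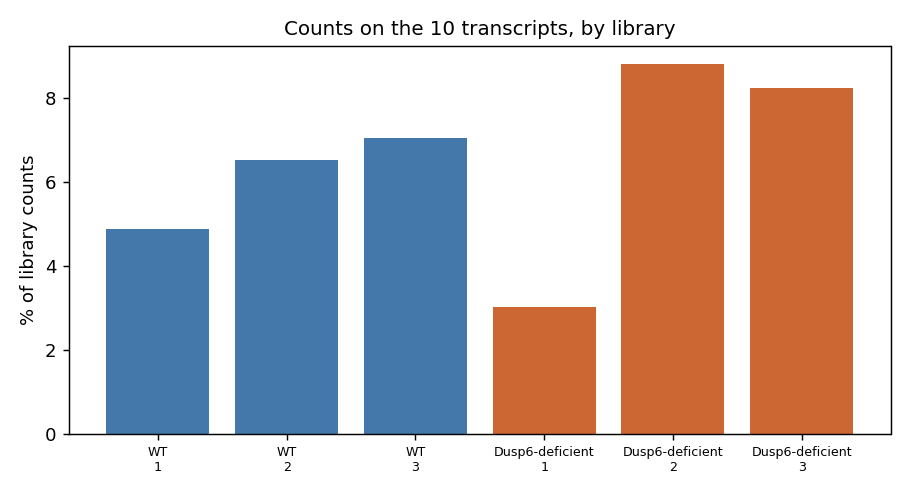
Percent of each library's counts that fell on the 10 mitochondrially encoded transcripts, with 1 bar per library, WT in blue and Dusp6-deficient in orange. Dusp6-deficient replicate 1 is the lowest bar at 3.02% and replicate 2 the highest at 8.79%.

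With all 6 libraries, 0 of the 10 transcripts passed an adjusted p of 0.05 in edgeR's quasi-likelihood test, against 8.22% of all genes tested. At an unadjusted p under 0.05 the count was 3 of 10, against 30.6% of all genes. DESeq2 gave 1 of 10 at an adjusted p of 0.05, which was Nd4, against 18.4% of all genes. Without a filter on low counts edgeR also gave Nd4 alone, or 1 of 10, against 7.04% of all genes. The CPM of the genotypes overlapped for all 10, so that 0 of 10 were free of overlap, against 34.1% of all genes. The median log2 fold change (Dusp6-deficient over WT) was 0.55 over the 10 transcripts and 0.02 over all genes, and 9 of the 10 were above 0, with Cytb the exception, against 51.4% of all genes. With library totals in place of TMM scaling, 7 of the 10 were above 0, against 38.2% of all genes. Dusp6-deficient replicate 1 was the lowest of the 6 libraries for 9 of the 10, against 18.5% of all genes, a comparison chosen after the values were seen. The transcripts varied together over the libraries, with a median Pearson's r of log2 CPM of 0.89 between pairs. Counts out of the 10, here and below, are therefore not counts of independent observations.

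Without Dusp6-deficient replicate 1, which left 2 Dusp6-deficient libraries, 7 of the 10 passed an adjusted p of 0.05 and were higher, against 15.5% of all genes. With a log2 fold change above 1 as well, 4 of the 10 passed, against 8.27% of all genes. The 4 were Nd2, Atp6, Nd4 and Nd6. DESeq2 without this library also gave 7 of 10 as higher, against 17.8% of all genes. Replicate 1 was the lowest Dusp6-deficient library for all 10, so leaving it out had to raise their Dusp6-deficient means and lessen the spread. The 7 of 10 is therefore no independent result about the transcripts. Leaving out any of the other 5 libraries gave 0 of 10 in edgeR, but few genes of any kind passed then. The share of all genes was 0.139%, 0.1% and 1.12% without WT replicates 1, 2 and 3, and 0.0603% and 0.0528% without Dusp6-deficient replicates 2 and 3, so these counts of 0 say nothing particular about the 10 transcripts. The number of calls among the 10 in edgeR thus differed with Dusp6-deficient replicate 1 left in or out, and why this library differed was not tested.

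**Figure D2:**
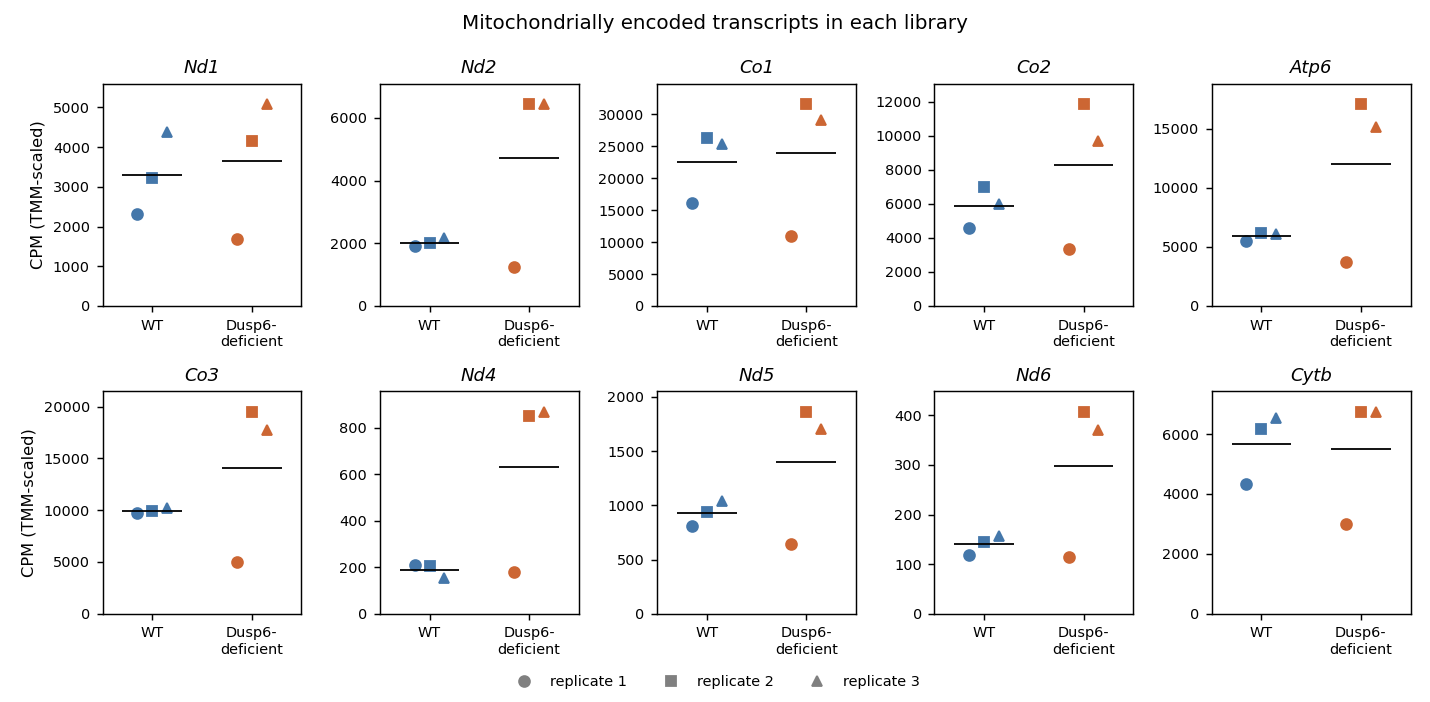
TMM-scaled CPM of each transcript in each library on linear axes that start at 0, with 1 panel per gene, a point per library shaped by replicate number, and a line at each genotype's mean. Replicate 1 is the lowest Dusp6-deficient library in every panel. For Nd1, replicate 2 lies within the WT range, and for Cytb, replicates 2 and 3 lie just above it.

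Complex I, the NADH dehydrogenase through which electrons enter the chain, is represented by Nd1, Nd2, Nd4, Nd5 and Nd6. Nd4 (ENSRNOG00000029707), a core membrane subunit, had the smallest adjusted p of the 10. It was at 210, 205 and 153 CPM in WT replicates 1, 2 and 3 and at 180, 850 and 870 CPM in Dusp6-deficient replicates 1, 2 and 3. Dusp6-deficient replicate 1 lay within the WT range and the others far above it. The log2 fold change of Nd4 was 1.74 (standard error 0.50, 95% interval 0.60 to 2.89), with an adjusted p of 0.0627. The adjusted p of Nd4 was 0.00437 with DESeq2 and 0.0252 with edgeR without a filter on low counts, so that its call depended on the setting. Without Dusp6-deficient replicate 1, the log2 fold change of Nd4 was 2.14 (adjusted p = 0.00306).

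Nd2 (ENSRNOG00000031033), another membrane subunit, was at 1905, 1998 and 2172 CPM in WT and at 1243, 6451 and 6445 CPM in Dusp6-deficient macrophages. The WT libraries were close together, and the Dusp6-deficient libraries lay on both sides of them. Nd2 had a log2 fold change of 1.22 (adjusted p = 0.147, standard error 0.51), which came to 1.62 without Dusp6-deficient replicate 1 (adjusted p = 0.00310). Nd6 (ENSRNOG00000029042) is the member encoded on the other strand of the mitochondrial DNA from the rest. It was at 119, 144 and 158 CPM in WT and at 115, 408 and 371 CPM in Dusp6-deficient macrophages, again on both sides of WT. For Nd6 the log2 fold change was 1.09 (adjusted p = 0.119, standard error 0.41), and 1.43 without Dusp6-deficient replicate 1 (adjusted p = 0.00375). The strand setting of the counting was not given in the sources used here, and without strand, reads of Nd6 and of transcripts from the opposite strand cannot be told apart.

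Nd5 (ENSRNOG00000029971), a further membrane subunit, was at 805, 938 and 1037 CPM in WT and at 640, 1865 and 1707 CPM in Dusp6-deficient macrophages. Nd5 had a log2 fold change of 0.60 (adjusted p = 0.291), and 0.90 without Dusp6-deficient replicate 1 (adjusted p = 0.0106). Nd1 (ENSRNOG00000030644), which joins the membrane arm to the arm that binds NADH, was at 2308, 3230 and 4376 CPM in WT and at 1685, 4147 and 5091 CPM in Dusp6-deficient macrophages. The genotypes overlapped for Nd5 through replicate 1, and for Nd1 replicate 2 also lay within the WT range. The log2 fold change of Nd1 was 0.14 (95% interval -0.76 to 1.04, adjusted p = 0.838), and it stayed above an adjusted p of 0.05 without Dusp6-deficient replicate 1 (0.259). Its sign turned with library totals in place of TMM scaling, where the log2 fold change was -0.14.

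Cytb (ENSRNOG00000031766), the cytochrome b of complex III, was at 4333, 6159 and 6524 CPM in WT and at 2980, 6752 and 6724 CPM in Dusp6-deficient macrophages. Dusp6-deficient replicates 2 and 3 were just above the WT range and replicate 1 below it. In the fit without replicate 1, the genotypes still overlapped for Cytb. The log2 fold change of Cytb was -0.05 (95% interval -0.80 to 0.70, adjusted p = 0.936) and turned to 0.20 without Dusp6-deficient replicate 1 (adjusted p = 0.484).

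Complex IV, the cytochrome c oxidase that passes electrons to oxygen, is represented by Co1, Co2 and Co3. Co1 (ENSRNOG00000034234), the subunit that holds the site of oxygen reduction, was at 16146, 26259 and 25282 CPM in WT and at 11004, 31638 and 29136 CPM in Dusp6-deficient macrophages. Co1 had a log2 fold change of 0.08 (95% interval -0.80 to 0.97, adjusted p = 0.901), which was 0.38 without Dusp6-deficient replicate 1 (adjusted p = 0.242), and was -0.19 with library totals. The genotypes overlapped through Dusp6-deficient replicate 1. Co2 (ENSRNOG00000030371), which takes electrons from cytochrome c, was at 4600, 6976 and 6018 CPM in WT and at 3322, 11871 and 9662 CPM in Dusp6-deficient macrophages. The log2 fold change of Co2 was 0.50 (adjusted p = 0.443), and 0.83 without Dusp6-deficient replicate 1 (adjusted p = 0.0271). Co3 (ENSRNOG00000030700), the remaining core subunit, varied little in WT, at 9724, 9954 and 10217 CPM. In Dusp6-deficient macrophages it was at 4975, 19536 and 17765 CPM, on both sides of WT. The log2 fold change of Co3 was 0.50 (adjusted p = 0.458), and 0.86 without Dusp6-deficient replicate 1 (adjusted p = 0.00752).

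Atp6 (ENSRNOG00000031979), a subunit of the proton channel of complex V, was at 5516, 6177 and 6121 CPM in WT and at 3748, 17125 and 15140 CPM in Dusp6-deficient macrophages. Its libraries fell as those of Co3 did, with WT in the middle. Atp6 had a log2 fold change of 1.02 (adjusted p = 0.178, standard error 0.47), and 1.39 without Dusp6-deficient replicate 1 (adjusted p = 0.00334).

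**Figure D3:**
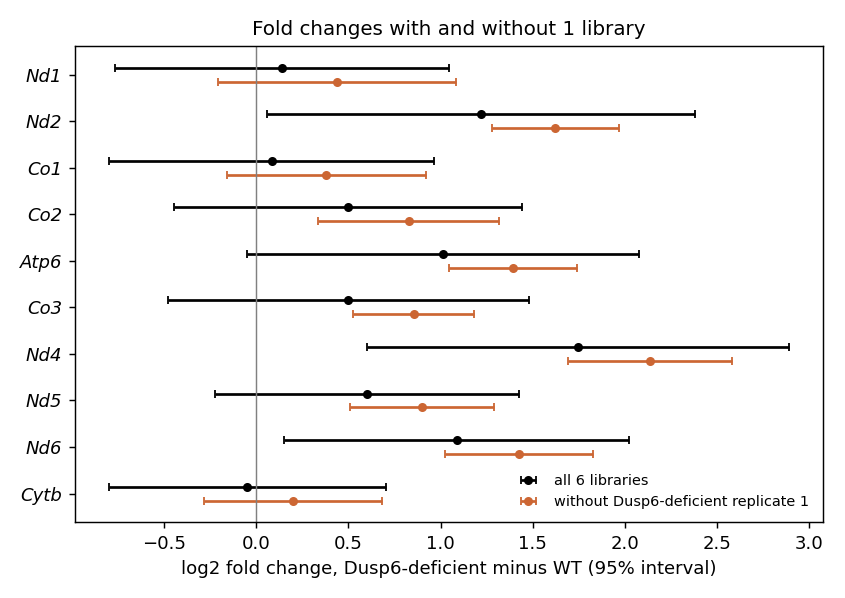
Log2 fold change of each transcript, Dusp6-deficient over WT, with 95% intervals from edgeR's fit, in black with all 6 libraries and in orange without Dusp6-deficient replicate 1. Leaving out the library moves every estimate to the right and narrows its interval, as for Nd4 from 1.74 to 2.14.

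The spread within a genotype was unequal. The SD of log2 CPM over the Dusp6-deficient libraries ran from 0.68 to 1.37 among the 10 transcripts, with a median of 1.002 against 0.38 over all genes tested. Over the WT libraries the median was 0.23, against 0.25 over all genes. The Dusp6-deficient SD was the larger for all 10 transcripts and for 64.2% of all genes. The mean of Dusp6-deficient replicates 2 and 3 was 5.19 times replicate 1 for Nd2 and 2.26 times for Cytb, so the transcripts did not differ between these libraries by 1 common factor. Over the 6 libraries, Pearson's r of log2 CPM between members had a median of 0.89 over the 45 pairs and ranged from 0.50 to 0.997, values that all share the low Dusp6-deficient replicate 1.

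The balance among the transcripts was then described as each one's percent of the counts on all 10, which needs no scaling between libraries. The genotypes did not overlap for 4 of the 10, all higher in Dusp6-deficient macrophages, against 9.9% of all genes measured relative to the same sum. That sum was itself lowest in Dusp6-deficient replicate 1 and highest in replicates 2 and 3, which spreads the values of other genes. By CPM, 34.1% of all genes did not overlap. The 9.9% is therefore no like baseline for the 10, and 4 of 10 is not read as an excess. The percents of the 10 transcripts add to a fixed total and are not independent of each other. Nd6 took 0.26%, 0.23% and 0.25% in WT and 0.38%, 0.41% and 0.40% in Dusp6-deficient macrophages, where replicate 1 lay beside the other libraries of its genotype. Nd4 took 0.46%, 0.33% and 0.25% in WT and 0.60%, 0.84% and 0.94% in Dusp6-deficient macrophages. For Nd5 the percents were 1.76%, 1.51% and 1.67% in WT and 2.14%, 1.85% and 1.84% in Dusp6-deficient macrophages. All 3 of these complex I transcripts were higher in every Dusp6-deficient library than in any WT library.

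Atp6 took 12.1%, 9.96% and 9.86% in WT and 12.5%, 17.02% and 16.3% in Dusp6-deficient macrophages, where replicate 1 was barely above the highest WT library. Co1 took 35.4%, 42.3% and 40.7% in WT and 36.8%, 31.4% and 31.4% in Dusp6-deficient macrophages, and replicate 1 lay within the WT range. The same held for Cytb, with 9.49%, 9.93% and 10.5% in WT and 9.97%, 6.71% and 7.24% in Dusp6-deficient macrophages. Summed by complex, the 5 transcripts of complex I took 11.7%, 10.5% and 12.7% in WT and 12.9%, 13.6% and 15.6% in Dusp6-deficient macrophages. The 3 transcripts of complex IV took 66.7%, 69.6% and 66.9% in WT and 64.6%, 62.6% and 60.9% in Dusp6-deficient macrophages. The sums of the genotypes did not overlap for either complex, but for complex I only barely (12.7% in WT replicate 3 and 12.9% in Dusp6-deficient replicate 1). No share over other genes was computed for these sums, which are parts of the same fixed total and did not stand for each transcript. Within complex IV, Co1 had the lower mean in Dusp6-deficient macrophages (33.2% against 39.5% in WT), while the means were higher for Co2 (11.1% against 10.3%) and Co3 (18.4% against 17.9%), and the genotypes overlapped for all 3. Within complex I, the mean of Nd1 was lower (5.08% against 5.77%) and those of the other 4 were higher, and Nd1 and Nd2 overlapped. In an edgeR fit with the counts on the 10 transcripts as the library size, a setting chosen after the data were seen, 0 of 10 passed an adjusted p of 0.05, against 0.212% of all genes, and 0 of 10 had an unadjusted p under 0.05, against 4.73% of all genes. The standard errors in that fit ran from 0.44 to 0.65. Few genes of any kind passed it, so these counts of 0 say nothing particular about the balance.

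**Figure D4:**
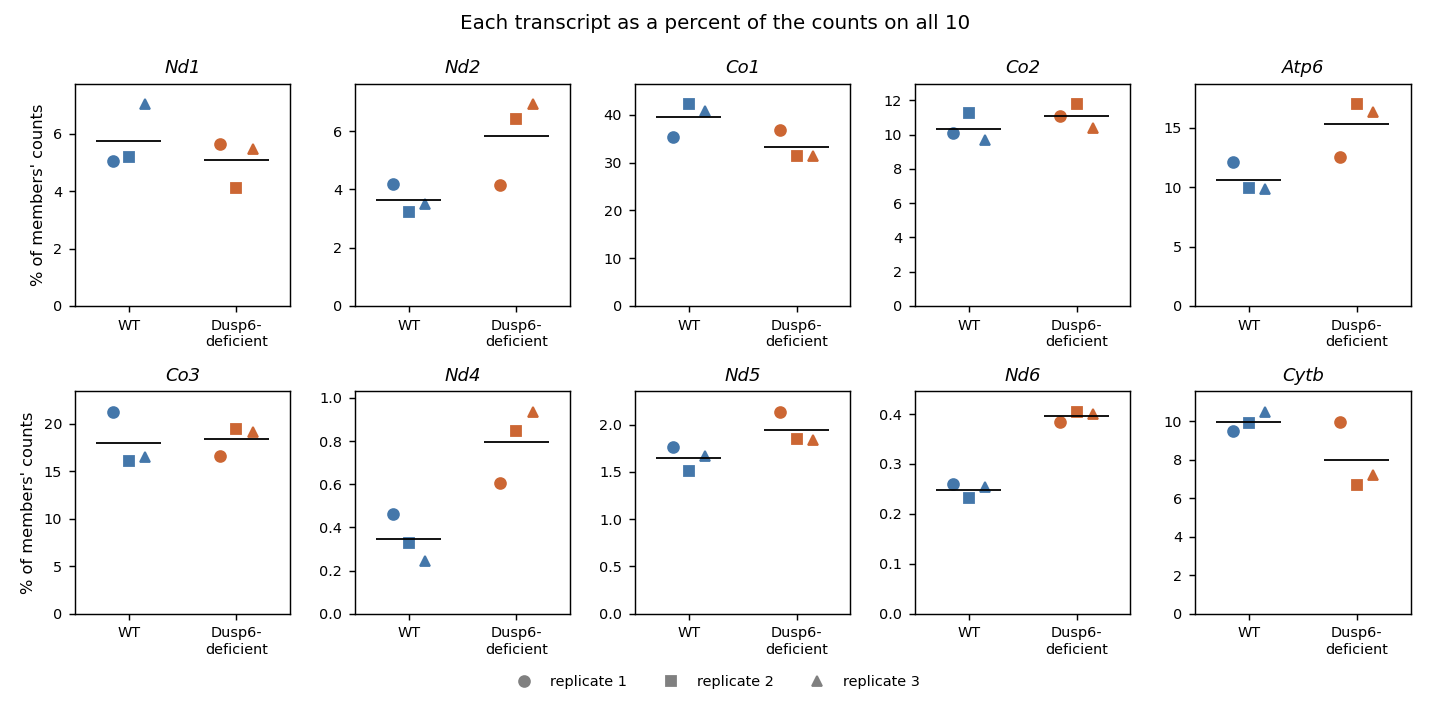
Each transcript as a percent of the counts on all 10, with 1 panel per gene, a point per library shaped by replicate number, a line at each genotype's mean, and axes that start at 0. The genotypes do not overlap for Atp6, Nd4, Nd5 and Nd6, and Dusp6-deficient replicate 1 lies within the WT range for the others.

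Of the 45 ratios between 2 members, 19 did not overlap between the genotypes, against 31.5% of the ratios over all pairs of tested genes with a count in each library. Nd4 had the most, with 8 of its 9 ratios (the exception was that to Nd6), against 27.5% of the ratios of Nd4 to any such gene. For Nd6 it was 6 of 9, against 17.8% of the ratios of Nd6 to any such gene, and each of the other members had 2 to 4 of 9. Such shares for a single gene were computed only for Nd4 and Nd6, which had the most ratios without overlap. They are no like baseline for ratios among the members. Dusp6-deficient replicate 1 was the lowest library for 9 of the 10 members but for 18.5% of all genes. The ratios of Nd6 to its neighbours are given because it is encoded on the other strand. Ratios that share a gene are not independent of each other. Nd6 counts were 14.7%, 15.4% and 15.2% of those of Nd5, its neighbour on the mitochondrial DNA, in WT and 17.9%, 21.9% and 21.7% in Dusp6-deficient macrophages. Against Cytb, which lies on the other side of Nd6, they were 2.74%, 2.34% and 2.41% in WT and 3.85%, 6.04% and 5.52% in Dusp6-deficient macrophages. Both ratios were higher in every Dusp6-deficient library, replicate 1 included. The ratios of Nd6 to Nd2, Atp6 and Nd4 overlapped.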

How the data were processed

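Per the labels and the study's methods, the authors sequenced RNA of sorted macrophages, used Trim Galore for trimming and HISAT2 for alignment to Rnor_6.0, and deposited raw counts per gene from featureCounts 1.5.0-p3. The submitters' processing notes name these tools. The annotation release, the strand setting and the treatment of reads with several positions were not given in the sources used here, so counts of genes that overlap or have near-identical nuclear copies, as mitochondrial genes can, are uncertain.

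The analysis here used R 4.3.3 and edgeR 4.0.16 (filterByExpr, TMM, quasi-likelihood test, genotype as the only term, Benjamini-Hochberg adjustment over all genes tested), and DESeq2 1.42.0 as an alternative. Calls used an adjusted p of 0.05 and, for gene counts, an absolute log2 fold change of 1. The standard error came from the F statistic. Log2 CPM had a prior count of 2. Both tools were tested on simulated data. The totals, from 12089585 to 17274938 counts, leave counting error small beside the spread between libraries for these transcripts.

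The members and lists were chosen with earlier results of these data known. The genes named are the 10 members and those most alike over the libraries, at a mean log2 CPM of 5 or more. Of 33884 identifiers, 0 could be given a symbol from the reference gene table, so the lists of nuclear-encoded subunits, mitochondrial regulators, stress genes and cell type markers were not analysed here. Counts were not scaled to gene length, so the percents and ratios between transcripts are compared only across libraries and do not rank the transcripts by level. Alternatives covered the test, scaling, filter, replicate block and each library left out.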

Additional observations from a re-analysis of the deposited data

How the results depend on the processing

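For the members, 16 alternative settings were run. Of the called genes, 442 were up and 275 down in Dusp6-deficient macrophages. Without a fold change threshold 708 were up and 341 down, DESeq2 gave 648 up and 662 down, library totals gave 170 up and 412 down, and no filter on low counts gave 561 up and 422 down. The up-regulated share of the calls, 61.6%, was 50.2% with upper-quartile scaling and 29.2% with library totals, which moved the median log2 fold change of all genes from 0.02 to -0.21. With each library left out in turn, 1 to 1083 genes were up and 5 to 968 down, and the highest counts were without Dusp6-deficient replicate 1.

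The number of members past an adjusted p of 0.05, which was 0, became 1 with DESeq2 and 1 without a filter on low counts. Both were Nd4, with log2 fold changes of 1.71 and 1.74. It ranged from 0 to 7 with a library left out, and 7 came without Dusp6-deficient replicate 1. DESeq2 without that library, added after the data were seen, also gave 7, with log2 fold changes of 1.63 for Nd2, 0.83 for Co2, 1.40 for Atp6, 0.86 for Co3, 2.14 for Nd4, 0.90 for Nd5 and 1.43 for Nd6, and 0.21 for Cytb, whose sign had turned.

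With library totals the log2 fold change was -0.14 for Nd1 and -0.19 for Co1, and with the members' sum as library size it was -0.18 and -0.25. With a library left out, log2 fold changes ranged from -0.23 to 0.44 for Nd1, from 0.87 to 1.62 for Nd2, from -0.18 to 0.38 for Co1, from 0.13 to 0.83 for Co2, from 0.65 to 1.39 for Atp6, from 0.17 to 0.86 for Co3, from 1.39 to 2.14 for Nd4, from 0.32 to 0.90 for Nd5, from 0.78 to 1.43 for Nd6 and from -0.27 to 0.20 for Cytb. Signs turned without single libraries for Nd1 (-0.10 without WT replicate 1 and -0.23 without Dusp6-deficient replicate 3), for Co1 (-0.15 without WT replicate 1, -0.18 without Dusp6-deficient replicate 2 and -0.13 without replicate 3) and for Cytb (0.02 without WT replicate 2, 0.02 without WT replicate 3 and 0.20 without Dusp6-deficient replicate 1). The cause was not tested.

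The difference in the members' share of counts, 0.53 percentage points, ranged from -0.52 to 2.36 with a library left out, and was 1.79 with TMM-scaled library sizes, 0.53 over genes past the filter and 0.73 without the 50 highest other genes. Leaving out each library was also run for the percent of the members' counts, after the data were seen. The differences ran from 3.78 to 6.02 points for Atp6, 0.38 to 0.55 for Nd4, 0.20 to 0.35 for Nd5 and 0.14 to 0.15 for Nd6. These transcripts were the ones without overlap between the genotypes, so leaving out a library could change the size of a difference but not its sign. The other transcripts were not run in this way.

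With the replicate number as a block, the log2 fold change of Co1 turned to -0.025, and 0 of 10 members passed an adjusted p of 0.05, against 3.90% of all genes. With the fold change threshold as well, 298 genes were up and 188 down. Correlations of deviations between same-numbered libraries were 0.11, -0.12 and -0.14, and libraries 2 and 3 did not match best with their own number, so the numbers were not taken to pair the samples.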

Other observations

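Among 4095 genes outside the 10 transcripts at a mean log2 CPM of 5 or more, 215 had a Pearson's r above 0.9 with the mean log2 CPM of the 10 over the 6 libraries, or 5.25% of them, and 212 had a negative r of more than 0.9 in size. The points share the libraries and the low Dusp6-deficient replicate 1. The highest r was 0.997, for ENSRNOG00000011586, which was at 41.0, 52.5 and 55.6 CPM in WT and at 22.1, 151 and 129 CPM in Dusp6-deficient macrophages (log2 fold change 1.02, edgeR adjusted p = 0.245). The next was ENSRNOG00000051408, with an r of 0.994. The files do not pair these identifiers with gene names.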
